A study of Homo sapiens with 4 samples.

Results

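Peaks of antibody enrichment for N7-methylguanosine (m7G) that were divided into 3 or more blocks of genome are described here, as mapped in untreated cultures of U2OS, an established human osteosarcoma line. m7G is a methylated, positively charged guanine. The members are all rows of both deposited peak tables, 1 for each immunoprecipitated (IP) library, that list 3 or more blocks. Replicate 1 held 410 of them among 4326 peaks (9.48%, Wilson 95% interval 8.64 to 10.4) and replicate 2 held 575 among 4862 (11.8%, 10.9 to 12.8). The series consists of 2 input and 2 IP libraries of poly(A) RNA, with no genotype or treatment that differs between them, and the input libraries enter only through the authors' fold of IP over input. The labels do not state separate cultures for the replicates, whose spread may then be technical only. Intervals on shares cover counting error only. The tables hold no read counts, and the depth behind each peak is unknown.

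As background, m7G joined to the first nucleotide forms the cap of every mRNA made by RNA polymerase II, where it is bound by the translation factor eIF4E and protects the 5′ end. It has also been mapped inside tRNA, rRNA and mRNA, with METTL1 and WDR4 as the best known writing enzyme for internal sites. In a spliced mRNA a short stretch of RNA can be encoded by several exons, so a peak that is continuous on the RNA appears on the genome as blocks parted by gaps. Genes with many short exons, such as those for collagens, are therefore open to being divided in this way.

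Nearly all gaps were at least 30 nt long, but the label of exons did not hold for each member. Gap length alone does not show that a gap is an intron, and no exon borders were compared with the blocks. The median gap between neighbouring blocks was 470 nt in replicate 1 and 652 nt in replicate 2, and the longest was 117113 nt in both. Of 1197 and 1622 gaps, 2 and 3 were shorter than 30 nt. The gaps of the ZNF598 peak, on the mRNA of a ubiquitin ligase that senses collided ribosomes, added up to 2 nt in both replicates, so its 3 blocks were not parted by introns. Wherever the peaks of both replicates covered the same stretch, their gaps had the same borders: 0 gaps differed over 281 pairs. How the block borders were set is not stated, so they are not taken here as evidence on splicing in either library. The tables list no reads that cross a junction.

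Some members reached the start of the gene, next to the cap, and the sequences of 8 of them show where such a peak begins. The RefSeq table of gene starts (GRCh38.p14) held a window on the strand of the peak for the genes of 230 of the 281 pairs. In 50 pairs the blocks of both replicates covered part of the first 50 transcribed bases, and in 21 they covered all of them. The sequences below are from the pairs with the highest lower fold that covered at least 15 of the first 30 transcribed bases in both replicates. Each run has 20 bases before the annotated start and 30 from it, read 5′ to 3′ on the strand of the gene, and capitals mark bases under the peak in both replicates.
PRKACA: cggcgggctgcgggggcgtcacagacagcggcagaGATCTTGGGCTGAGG
CAPNS1: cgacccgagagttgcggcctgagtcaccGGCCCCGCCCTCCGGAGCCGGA
PHF23: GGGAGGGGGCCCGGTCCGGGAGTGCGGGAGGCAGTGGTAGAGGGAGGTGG
VEGFB: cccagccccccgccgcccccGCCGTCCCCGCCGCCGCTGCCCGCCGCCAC
CLEC11A: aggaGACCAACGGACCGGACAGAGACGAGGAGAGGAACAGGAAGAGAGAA
MAGEA3: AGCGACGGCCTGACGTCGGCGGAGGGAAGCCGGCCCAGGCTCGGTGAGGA
SCAF1: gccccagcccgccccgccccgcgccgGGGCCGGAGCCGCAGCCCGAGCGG
SHC1: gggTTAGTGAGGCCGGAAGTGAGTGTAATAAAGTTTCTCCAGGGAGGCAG

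Their positions are chr19:14117733-14117782 (minus strand) for PRKACA, chr19:36140046-36140095 (plus) for CAPNS1, chr17:7239428-7239477 (minus) for PHF23 and chr11:64234564-64234613 (plus) for VEGFB. The others are chr19:50723344-50723393 (plus) for CLEC11A, chrX:152698774-152698823 (plus) for MAGEA3, chr19:49642189-49642238 (plus) for SCAF1 and chr1:154974347-154974396 (minus) for SHC1. The VEGFB peak began exactly at the annotated start in both replicates. The PRKACA peak began 15 nt inside it in both. The PHF23 and MAGEA3 peaks covered all 20 bases before the annotated start as well. In 27 of the 50 pairs at least 1 of these bases was covered in at least 1 replicate. RefSeq lists more than 1 start for some genes. For PHF23 and SCAF1 the window is that of an inner start, and the peak lies 1322 nt from the outermost start of PHF23 and 1750 and 1720 nt from that of SCAF1. The first 50 transcribed bases of the 50 pairs had a median GC content of 68%, against 64% over all 22198 windows of protein-coding genes. The motif GANGAN, searched with overlaps allowed, lay in 9 of the 50 windows on the transcribed strand (18%) and in 10 on the other (20%). Over all windows of that length the shares were 18.7% and 15.8%.

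Most members were divided into few blocks. Exactly 3 blocks were listed for 264 peaks of replicate 1 and 374 of replicate 2, and just outside the rule lay 923 and 1111 peaks of 2 blocks. At least 7 blocks were reached by 23 and 28 peaks, and at least 10 by 9 in each table. The blocks joined to a median of 241 nt in both replicates, against 150 nt for peaks of 1 block. The stretch of genome from the first to the last block had a median of 2442 and 3037 nt. Inner blocks, which have a gap on either side, had median lengths of 81 and 88 nt. End blocks were shorter, with a median of 47 nt in both, and 13.4% and 11.0% of them were under 10 nt. Without end blocks under 10 nt, 345 and 498 peaks would still have had 3 blocks.

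**Figure D1:**
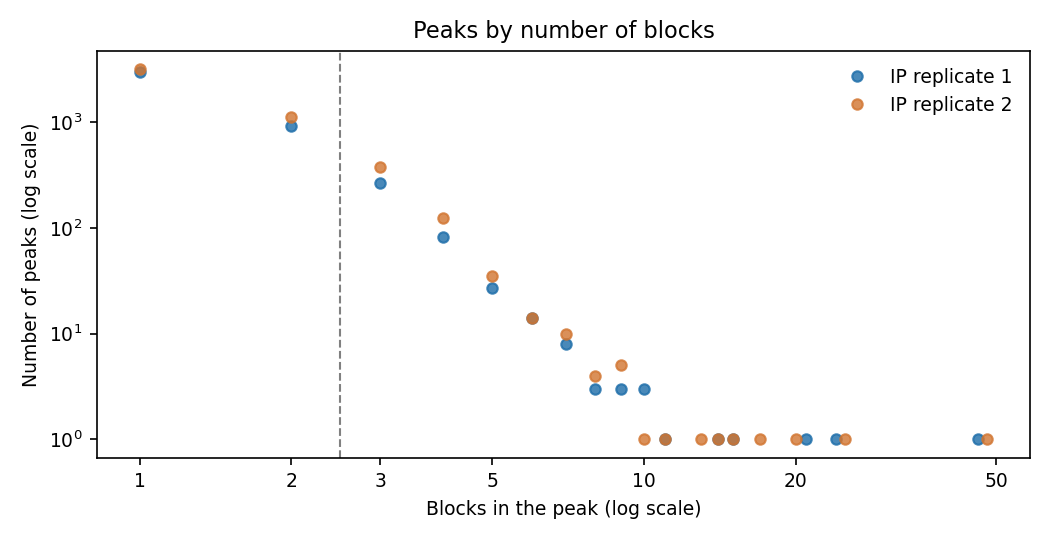
Number of peaks (vertical axis, log scale) against the number of blocks in the peak (horizontal axis, log scale) in IP replicate 1 (blue) and IP replicate 2 (orange). Peaks right of the dashed line are the members, from 264 and 374 peaks of 3 blocks to single peaks of 46 and 48 blocks.

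The fold of IP over input is the authors' value for the whole peak, with no separate value for each block. Its median over the members was 2.78 in replicate 1 (quartiles 1.92 and 4.76) and 2.41 in replicate 2 (1.77 and 3.88). Peaks of 1 block had medians of 4.63 and 3.94, and peaks of 2 blocks 3.47 and 2.78, so the order of the 3 classes was the same in both replicates. A fold of at least 4 was reached by 138 of 410 members (33.7%, Wilson 29.3 to 38.4), where 53.6% of all peaks of replicate 1 reached it. In replicate 2 it was 137 of 575 (23.8%, 20.5 to 27.5), against 42.1% of all peaks. Every listed peak had passed the authors' threshold, and significance ran the other way from fold. The median log10 p of the members was -11.4 and -12.0, against -5.33 and -5.42 for peaks of 1 block.

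The lower fold was also seen among peaks of like joined length. Above 305 nt, members had medians of 2.98 and 2.72, peaks of 2 blocks 5.36 and 4.72, and peaks of 1 block 6.46 and 5.67. At up to 155 nt the members, 65 and 92 of them, had 2.43 and 1.91, against 4.13 and 3.64 for 1 block. Joined length moved with significance too, and the members over 305 nt had a median log10 p of -25.6 and -30.2. No test between classes was made, since peaks of 1 library are not replicates and a group of 2 libraries allows no exact test. Expression was not measured in these tables, and its part in the lower folds was not tested.

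**Figure D2:**
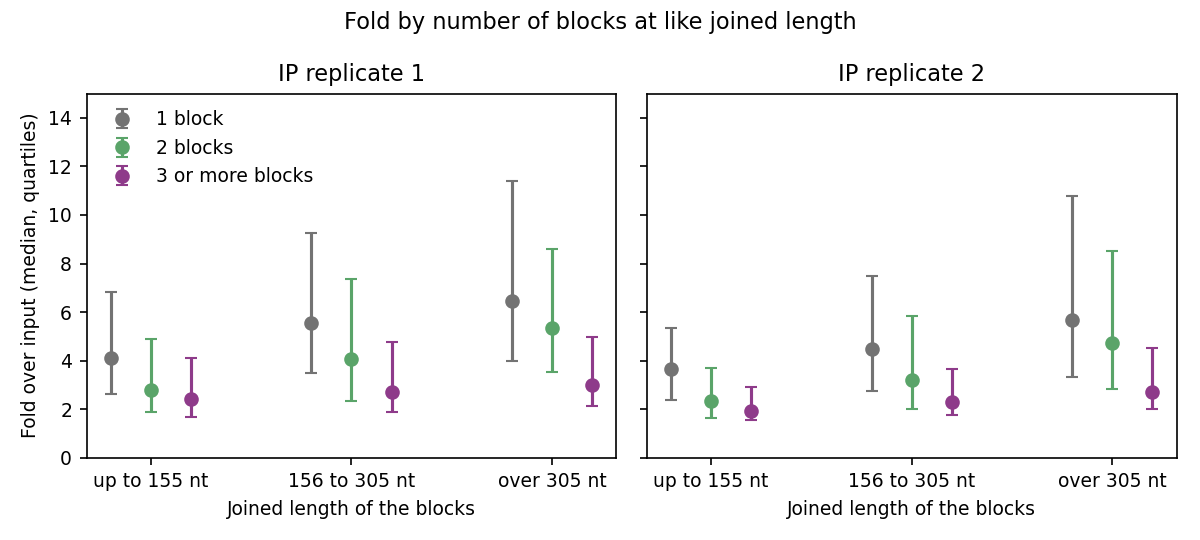
Median fold over input (points) with quartiles (bars) for peaks of 1 block (grey), 2 blocks (green) and 3 or more blocks (purple), in 3 ranges of joined block length. Left, IP replicate 1; right, IP replicate 2. In each range and replicate the members have the lowest median, 2.98 and 2.72 in the longest range.

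Most members overlapped a peak of the other replicate. Of the 410 in replicate 1, 361 overlapped a peak of replicate 2 by at least 1 bp of block on the same strand (88.0%, Wilson 84.6 to 90.8), where 62.6% of all replicate 1 peaks did. Of the 575 in replicate 2, 424 overlapped a peak of replicate 1 (73.7%, 70.0 to 77.2), against 55.9% of all. A longer peak has more bases in which to overlap, and its part in these shares was not tested. The partner was itself divided into 3 or more blocks for 286 members of each replicate, 69.8% and 49.7%. For another 66 and 117 members the most divided partner had 2 blocks, and for a further 9 and 21 it had 1. The 49 and 151 members with no partner were shorter and less significant, with joined medians of 179 and 180 nt and median log10 p of -5.52 and -6.61. Mutually best overlaps between members gave 281 pairs on 257 genes.

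The paired peaks had nearly the same extent and fold in both replicates. The number of blocks was the same in 185 pairs (65.8%), higher in replicate 2 in 62 and higher in replicate 1 in 34. The median overlap was 84.9% of the longer peak, and 37 pairs had identical blocks throughout. The fold was higher in replicate 1 in 138 pairs and in replicate 2 in 143. The folds of a pair differed by a median factor of 1.17 (0.23 in log2), and the 95th percentile was a factor of 1.96 (0.97 in log2). Spearman's rho between the replicates was 0.842 over the 281 pairs, which share both libraries and are not independent. Both folds were 4 or more in 69 pairs (24.6%), against 42.9% of the 2639 pairs over all peaks. In 59 pairs the fold stayed under 2 in both, a count not given here for the pairs over all peaks.

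**Figure D3:**
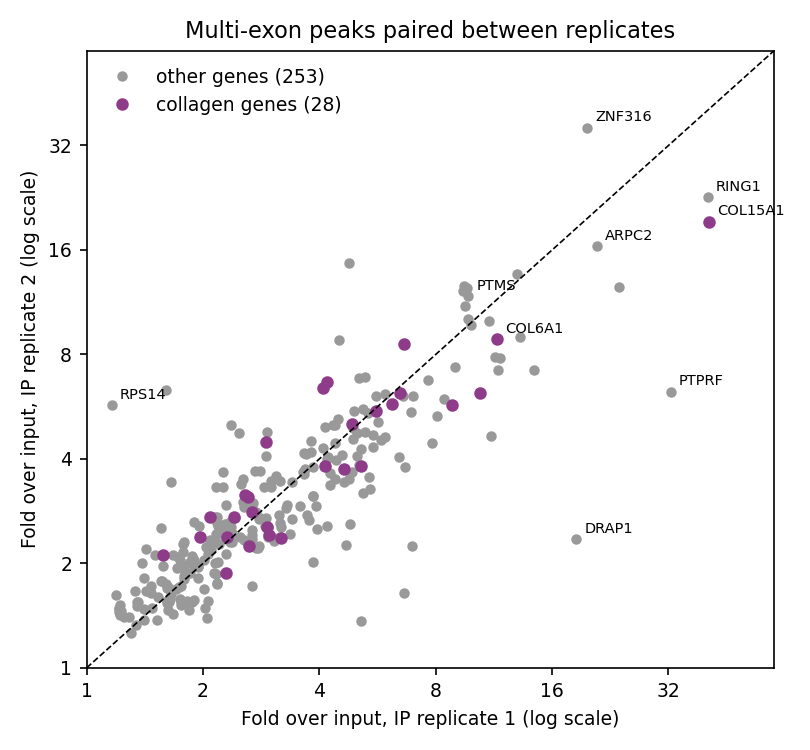
Fold over input in IP replicate 1 (horizontal axis) and IP replicate 2 (vertical axis), both on log scales, for the 281 paired peaks of 3 or more blocks. Purple points are the 28 pairs on collagen genes, grey points the other 253, and the dashed line marks equal folds. RING1, ZNF316 and COL15A1 lie highest, and DRAP1, PTPRF and RPS14 lie farthest from the line.

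Ranked by the smaller of its folds, the strongest pair lay on RING1, which encodes a ubiquitin ligase of the Polycomb repressive complexes. It had a fold of 40.4 in replicate 1 over 4 blocks (chromosome 6, 33210111 to 33212303, plus strand) and 22.7 in replicate 2 over 3 blocks. ZNF316, a zinc finger gene, had 19.7 and 36 with 3 blocks in both (chromosome 7, 6642452 to 6643848, plus strand, in replicate 1). COL15A1, the chain of a basement membrane collagen, had 40.7 and 19.3 over the same 3 blocks of 181 nt in all, parted by 9011 nt of gaps. These 3 are the pairs at or above 19 in both replicates. From replicate 1 to replicate 2 the log2 fold changed by -0.83 for RING1, 0.87 for ZNF316 and -1.08 for COL15A1, close to the 95th percentile of absolute differences.

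ARPC2, part of the complex that nucleates branched actin, followed with folds of 20.9 and 16.4. FBL, which encodes fibrillarin, the methyltransferase of box C/D small nucleolar ribonucleoproteins, had 13.0 and 13.6 over 5 blocks that began within 25 nt of the gene start. PRKACA, the catalytic subunit alpha of protein kinase A, had 23.8 and 12.5 over identical blocks. The sequence shown above for PRKACA is the start of that peak, whose blocks are parted by 10551 nt. BAP1, a nuclear deubiquitinase, had 11.0 and 10.0. TAF15, a nuclear protein that binds RNA, had 9.85 and 9.71, and CAPNS1, the small subunit of calpains, 9.70 and 10.1. PTMS, which encodes the acidic nuclear protein parathymosin, had 9.69 and 11.8. Replicates of FBL, TAF15 and CAPNS1 were within 0.07 of each other on the log2 scale.

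The PTMS peak was also the most significant of all pairs, with log10 p of -3160 and -3360. Its 5 blocks joined to 1062 and 973 nt and ran from 12 nt inside the annotated gene start to 88 and 177 nt before its end. ARPC2 came next (log10 p -2120 and -1860). PTMA, which encodes the related prothymosin alpha, had 5 blocks, folds of 4.08 and 4.31 and log10 p of -316 and -335. ATN1, which encodes atrophin-1, had 9.55 and 11.0 (-311 and -407). In replicate 2 the ATN1 peak had an additional block upstream, which raised the sum of its gaps from 298 to 9600 nt. The joined length of these 4 peaks ranged from 355 to 1062 nt. Strong p-values were also listed at low fold, as for ACTB, beta-actin, with log10 p of -153 and -236 at folds of 1.63 and 1.55.

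Collagen genes held the most divided peaks. Collagens are secreted triple helices of repeated glycine-X-Y units, and the coding stretch of the helix in fibrillar collagens is split over many short exons. Of the 65 peaks on collagen genes in replicate 1, 42 were members (64.6%), against 8.64% of the 4261 peaks on other genes. In replicate 2 it was 41 of 63 (65.1%) against 11.1% of 4799. Each table had members on 17 collagen genes, and collagen peaks made up 15 of 23 and 14 of 28 peaks of 7 or more blocks. Of the 281 pairs, 28 lay on 16 collagen genes, with a median lower fold of 3.33, against 2.36 for other genes. Both folds were 4 or more in 11 of the 28, against 42.9% of the 2639 pairs over all peaks, whose median lower fold was 3.53.

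The peak with the most blocks lay on COL1A1, the main chain of bone collagen (chromosome 17, 50186496 to 50199433, minus strand, in replicate 1). It had 46 blocks in replicate 1 and 48 in replicate 2, joined to 3473 and 3623 nt, and 45 of 47 gaps were the same. Its folds were low, 2.31 and 2.38, and it stopped 2198 nt short of the gene start and 2395 nt short of the gene end in replicate 1. The strongest COL1A1 peaks of fewer blocks had 4.60 and 6.38. The 3 chains of the microfibrillar collagen VI came next by the smaller block count of a pair. COL6A1 had 24 and 25 blocks with folds of 11.5 and 8.84, COL6A2 21 and 20 blocks with 4.87 and 5.04, and COL6A3 15 and 15 blocks with 4.14 and 3.81. COL6A1 thus had folds higher than those of COL6A2 and COL6A3 in both replicates. Its log10 p was -335 and -233.

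**Figure D4:**
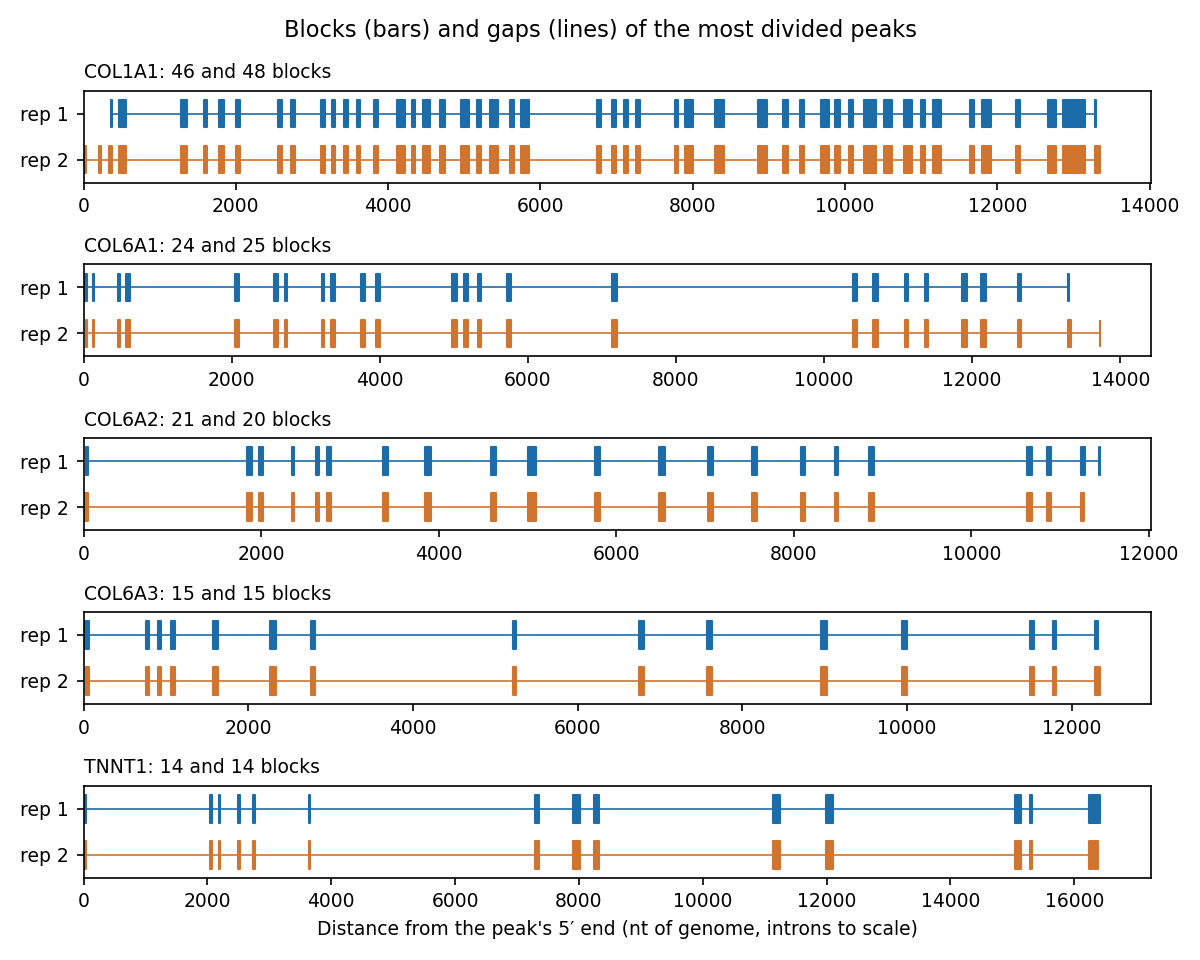
Blocks (bars) and gaps (thin lines) of the pairs with the most blocks, COL1A1, COL6A1, COL6A2, COL6A3 and TNNT1, in IP replicate 1 (blue) and IP replicate 2 (orange). The horizontal axis is the distance in nt of genome from the 5′ end of the peak, so introns are to scale. The bars of both replicates line up, with 46 and 48 blocks on COL1A1.

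The network-forming collagen IV chains, which make up basement membranes, carried several divided peaks along the gene. COL4A2 had 3 pairs, with folds of 3.19 and 2.36 nearest the gene start, 2.30 and 1.87 further in, and 2.91 and 4.47 furthest in. The first of these joined 9 blocks across 122279 nt of gaps and began 90 nt from the gene start. The last had 8 blocks in replicate 1 and 17 in replicate 2, where 1 peak covered what replicate 1 listed as separate peaks of 8 and 7 blocks. COL4A1 had 3 pairs as well, from 1.58 and 2.12 to 2.09 and 2.72, the latter over 9 blocks in each replicate.

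Among other fibrillar chains, COL5A1 had 3 pairs with folds between 2.54 and 3.14, COL11A1 2.61 and 3.10, and COL27A1 5.61 and 5.50. COL7A1, the collagen of anchoring fibrils, had 3 pairs, led by 6.46 and 6.21 over 6 and 11 blocks, and another reached 10.4 and 6.19. COL13A1, a transmembrane collagen, had 3 pairs with 4.18 and 6.67, 4.09 and 6.39, and 6.61 and 8.57, higher in replicate 2 in each. COL18A1, whose end fragment is endostatin, had 5.14 and 3.81. The fibril-associated chains COL16A1 (4.63 and 3.75 at the strongest of 3 pairs), COL9A2 (2.97 and 2.41) and COL22A1 (6.17 and 5.77) completed the group. COL5A2 and COL8A1 had peaks but no member in either replicate, COL3A1 a member in replicate 2 alone (2.30) and COL5A3 members in replicate 1 alone.

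Inner blocks on collagen genes mostly had lengths in whole multiples of 9 nt. Each inner block was counted once per replicate. On collagen genes 192 of 232 inner blocks in replicate 1 had a length that is a whole multiple of 9 nt, the size of 1 glycine-X-Y unit (82.8%, Wilson 77.4 to 87.1). In replicate 2 it was 192 of 236 (81.4%, 75.9 to 85.8). On other genes the shares were 11.4% of 551 (9.04 to 14.4) and 12.1% of 803 (10.0 to 14.5). The most frequent length on collagen genes was 54 nt, with 61 and 65 blocks, followed by 45 nt with 31 and 27. Whole multiples of 3 made up 96.1% and 93.6% on collagen genes and 37.0% and 39.2% on others. Of the 174 inner blocks of collagen genes present in both replicates, 142 were multiples of 9 nt (81.6%), against 43 of 378 (11.4%) on other genes. These lengths describe what the peaks cover, not the strength of enrichment. If block borders were taken from annotated exons, any peak over the same exons would give the same lengths.

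**Figure D5:**
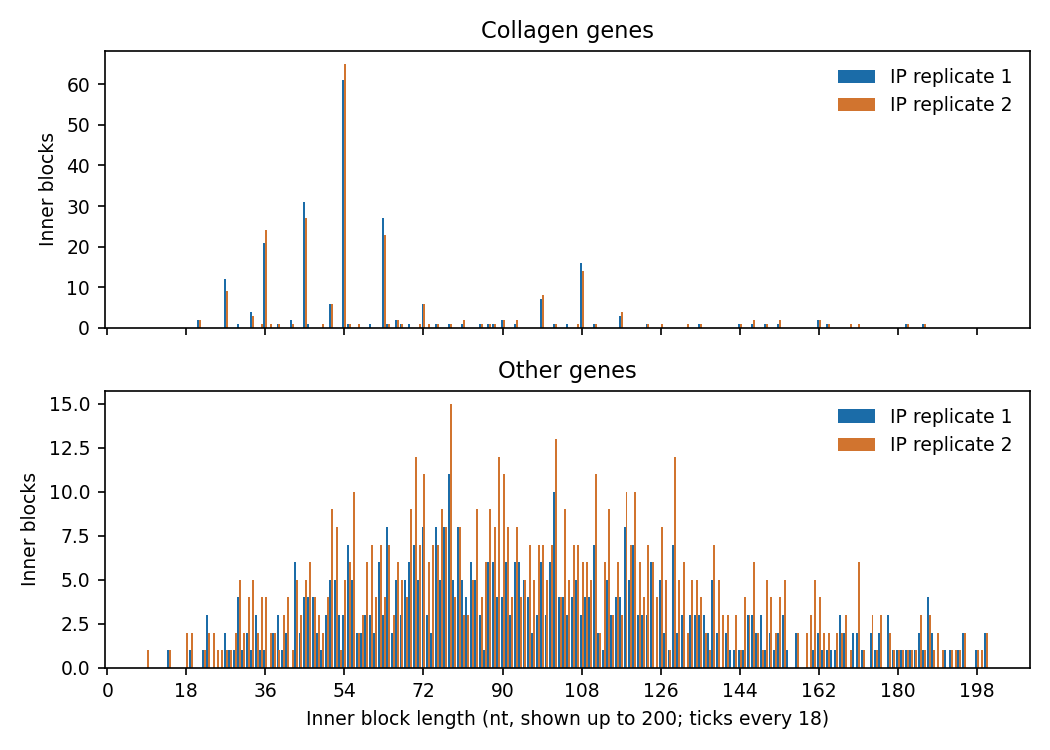
Number of inner blocks (vertical axis) by length in nt (horizontal axis, up to 200 nt, ticks every 18 nt) on collagen genes (top) and on other genes (bottom), in IP replicate 1 (blue) and IP replicate 2 (orange). On collagen genes the blocks mostly stand at multiples of 9 nt, with 61 and 65 at 54 nt, and on other genes they are spread from short to long.

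Outside the collagens, TNNT1, which encodes the slow skeletal muscle form of troponin T, had the most blocks, 14 in each replicate, with folds of 2.37 and 2.31. Its peak ran from the annotated gene start to 89 and 118 nt before the end. AEBP1, a collagen-binding matrix protein, had 10 blocks in each (2.29 and 2.95) and a further pair of 5.50 and 4.33. TPM2, a tropomyosin, had 8 and 9 blocks (2.29 and 2.13), and MYH9, the heavy chain of non-muscle myosin IIA, 8 and 8 (2.28 and 2.59). The longest gaps were those of C7orf50, now named CHLSN, with 126511 nt between 3 blocks (2.06 and 2.13), and of APP, the amyloid precursor protein, with 68319 nt (2.08 and 2.34). The shortest, apart from ZNF598 (13.2 and 9.0), were those of SCRIB, a cell polarity scaffold, with 151 nt (3.40 and 2.69), and ACADVL, a mitochondrial acyl-CoA dehydrogenase, with 182 nt (1.74 and 2.05), ranked by the gaps of replicate 1. In replicate 2 the ACADVL peak had another block and 661 nt of gaps. Outside the collagens, the pairs named here for their long gaps or many blocks thus had folds between 2.06 and 2.95, leaving aside the further AEBP1 pair.

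Among the pairs that differed most in fold between replicates, DRAP1 and RPS14 also differed in their number of blocks. A relation between shared extent and fold difference was not tested. DRAP1, a transcriptional corepressor, had a fold of 18.5 over 7 blocks in replicate 1 and 2.35 over 4 blocks in replicate 2, and 45.2% of the longer peak was shared. RPS14, a ribosomal protein, had 1.16 over 3 blocks and 5.71 over 5, with 28.7% shared. PTPRF, a receptor tyrosine phosphatase, had the same gaps in both but 32.4 and 6.25. Whole multiples of 1 step value are frequent among high folds in these tables, 18.5 in replicate 1 and 10 in replicate 2. The DRAP1 value of 18.5 and the BAP1 value of 10.0 are such values. In all, 2 of 8 members at or above the step were such multiples in replicate 1 and 2 of 20 in replicate 2, against 53.0% and 29.1% of all peaks that high. Among the smallest differences were those at MARCHF6, a ubiquitin ligase of the endoplasmic reticulum (3.64 and 3.63), and at the second AGRN pair (1.70 and 1.69).

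Members that reached the gene start had lower median folds than peaks of 1 block there. A block edge lay within 200 nt of the annotated start for 100 of 410 members in replicate 1 (24.4%, Wilson 20.5 to 28.8) and for 139 of 574 with a matched gene in replicate 2 (24.2%, 20.9 to 27.9). Over all peaks it was 30.4% and 26.7%. The midpoint of the joined blocks lay that near for 4.88% and 4.36% of members, against 22.5% and 19.0% of all peaks. The median fold of these members was 2.91 and 2.59, and of members away from both gene ends 2.73 and 2.38. For peaks of 1 block the medians were 6.17 and 5.29 at the start and 4.25 and 3.57 away from both ends. Among the 66 pairs at the start in both replicates were FBL, PRKACA, BAP1, CAPNS1 and PTMS, and also VEGFB, a growth factor of the VEGF family (11.6 and 7.23), and CLEC11A, a secreted factor of bone (7.66 and 6.76). The adaptor SHC1 had 5.24 and 4.77 and HNRNPL, a splicing regulator, 5.52 and 4.70. Their median lower fold was 2.36, against 2.52 for the 189 pairs near neither end in either replicate. The cap and an internal site close to it cannot be told apart in peaks set mostly in steps of 30 nt. Joined lengths lay within 1 nt of a whole multiple of 30 nt for 70.2% and 70.8% of members, and for 89.9% and 89.3% of all peaks.

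Members near the gene end were about as frequent as among all peaks. A block edge lay within 200 nt of the annotated end for 16 members (3.90%, Wilson 2.42 to 6.24) and 21 (3.66%, 2.41 to 5.53), against 4.75% and 5.05% of all peaks. SNRNP70, a protein of the U1 small nuclear ribonucleoprotein, had 8.41 and 5.95 there, FKBP2, a prolyl isomerase of the endoplasmic reticulum, 4.87 and 3.67, and MDK, the growth factor midkine, 2.68 and 2.42. Only the pairs on PTMS, TNNT1 and TMSB10 came within 200 nt of both gene ends in both replicates. TMSB10, which encodes the actin-binding peptide thymosin beta 10, had 1.35 and 1.55 over 3 identical blocks that joined to 425 nt. The fold of PTMS was thus several times that of the other 2 peaks that covered nearly a whole mRNA.

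Several genes besides the collagens held 2 pairs. They were AEBP1, AGRN, CHD3, CHD4, EWSR1, FLNA, GNAS, HDGFL2, MYH9, NCL, PSMC5 and SMARCC2, while 239 genes had 1. HDGFL2, a chromatin-binding protein, had the strongest, 9.40 and 12.2 at one and 5.90 and 4.64 at the other. NCL, which encodes nucleolin, had 4.92 and 5.49, and 2.15 and 2.72. CHD3, an ATPase that moves nucleosomes, had 5.06 and 6.86, and 3.56 and 2.92. EWSR1, which also binds RNA, had 4.90 and 4.57, and 3.71 and 2.76. At the low end were GNAS, a G protein alpha subunit (1.21 and 1.45, and 1.72 and 2.09), FLNA, an actin cross-linker (2.03 and 2.23, and 1.46 and 1.67), and PSMC5 of the proteasome (1.84 and 1.47, and 1.42 and 1.67).

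Gene groups, each a list that leaves out some genes of its kind, differed in how many members they held and how strong these were. Pairs on RING1, TRA2A (4.38 and 5.0), EIF2B4 (4.34 and 5.0) and AEBP1, for example, were outside the lists. Over all 20052 protein-coding genes 257 held a pair (1.28%), which is 11.0% of the 2334 with a peak in both tables. Their median lower fold, at the strongest pair of each gene, was 2.42. Of 22 listed collagen chains 13 held a pair, 81.2% of the 16 with a peak in both tables. Of 30 genes of the actin cytoskeleton 10 did (45.5% of 22). They were led by ARPC2 and by SPTBN1, a spectrin (9.63 and 12.4), while ACTB had 1.63 and 1.55 and TPM1 1.35 and 1.51. Their median lower fold was 2.08. Glycolytic enzymes had 5 of 17 (55.6% of 9) with low folds, TPI1 at 2.09 and 2.32, PKM at 1.47 and 1.72, ALDOA at 1.29 and 1.40, ENO1 at 1.25 and 1.40, and a median lower fold of 1.29. No list was tested as a set.

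Splicing factors held pairs on 8 of 38 (33.3% of the 24 with a peak in both tables), with a median of 3.33. The strongest of those listed were SNRNP70, HNRNPL, RBM25 (3.81 and 4.50) and HNRNPM (3.85 and 3.78). HNRNPA2B1 had 7 blocks in each replicate (2.87 and 3.32). Chromatin regulators had 5 of 28 (29.4% of 17), with a median of 3.63. They included RBBP4, a histone-binding subunit of several complexes, at 9.46 and 12.6, and CHD3. SMARCC2 (3.63 and 3.67) and SMARCA4 (2.94 and 2.54), of the SWI/SNF complexes, were also among them.

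Ribosomal protein genes held pairs on 10 of 48 (38.5% of the 26 with a peak in both tables) and had low folds, with a median lower fold of 1.42. RPL3 had 1.64 and 1.58, RPS19 1.61 and 1.54, RPL18 1.48 and 1.49, and RPL7A 1.47 and 1.64, while RPL10A, at 1.62 and 1.47, shared its lower fold with RPL7A. Reads of these genes can also match their processed copies elsewhere in the genome. Translation factors had 3 of 32 (16.7% of the 18 with a peak in both tables). They were EIF3A (3.86 and 3.13), EEF2 (1.79 and 1.96) and EEF1D (1.73 and 1.71 over 7 blocks). Other matrix genes had 4 of 26 (30.8% of 13), namely P4HB (2.15 and 2.32), AGRN (2.18 and 1.75), SPARC (2.67 and 1.72 over 6 blocks) and FN1 (1.62 and 1.71).

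The remaining groups held 0 to 3 genes with a pair each. The replication helicase genes MCM2 (2.78 and 2.22) and MCM3 (1.58 and 1.97) and INCENP (4.41 and 3.97), of the chromosomal passenger complex, made 3 of 22 cell cycle genes (37.5% of the 8 with a peak in both tables). Microtubule genes had 2 of 21, DCTN1 (1.85 and 2.02) and KIF1C (1.78 and 2.27), which is 33.3% of 6, and proteasome and ubiquitin genes had 2 of 24, UBAP2L (2.81 and 2.70) and PSMC5, which is 18.2% of 11. Focal adhesion genes had ITGA3 (1.94 and 1.95), chaperones CANX (1.79 and 2.30) and vesicle coats AP3D1 (2.69 and 2.99), which is 12.5% of 8, 7.69% of 13 and 12.5% of 8, near the 11.0% over all genes. Hippo signalling genes had a pair on 0 of 25, although 12 had a peak in both tables, and 1 held a member in replicate 2 alone. Genes without introns had 13 with a peak in both tables and 0 with a member in either. If block borders were taken from annotated exons, such genes could hold no member, so this count is no check on the blocks.

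Some markers of the labelled cell type were among the members. Of 9 markers of mesenchymal and osteoblast lineage, 6 had a peak in both tables. Each of the 6 held a pair, among them COL1A1, COL5A1, COL6A1, FN1 and SPARC. COL1A2 and the transcription factors RUNX2 and TWIST1 had no peak in either table. Of the haematopoietic, hepatocyte and endothelial markers (5, 3 and 3 genes), 0 had a peak in either table, and of 4 epithelial markers 1 had a peak but none had a member. Keratin genes outside that list, KRT17 (1.23 and 1.46) and KRT81 (2.94 and 2.39), held pairs.

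Members with no overlapping peak in the other replicate had median folds of 3.01 in replicate 1 and 1.94 in replicate 2, against 2.73 and 2.54 for members with one. The highest in replicate 1 was on PRSS27, a serine protease (55.5, log10 p -4.13), a value that is a whole multiple of the step of 18.5. COL5A3 (12.7, -7.69) and COL27A1 (10.6 over 7 blocks, -8.27) followed. In replicate 2 the highest were on the pseudogene GOLGA6L3P (20, -3.12), which has near-identical copies and is uncertain, on COL7A1 (9.44 over 6 blocks, -9.02) and on ARRB2, which encodes beta-arrestin 2 (7.5, -7.34). Collagen genes thus also stood among the highest members seen in a single replicate.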

How the data were processed

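Input and IP libraries of U2OS poly(A) RNA were prepared with a stranded mRNA kit, per the labels' protocols. STAR and GRCh38 are named, without a version, in the submitters' processing notes. No source used here names the peak caller. The 2 tables analysed were deposited per IP replicate, so peaks were not called on pooled libraries. Per the file headers, each peak has a p-value, a log10 p and log10 false discovery rate (treated here as a score), a fold of IP against input (a ratio, with its scaling for library size not stated) and its blocks (other values, positions). Depth is unknown.

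Members were rows with at least 3 blocks. Block and gap lengths came from the deposited block sizes and starts. Blocks on the same chromosome and strand that shared at least 1 bp overlapped, and mutually best overlaps between members were pairs. Gene symbols and spans came from RefSeq (GRCh38.p14), within 2000 nt of the peak, which matched 100% and 99.8% of members. Distances run from the outermost block edge. Coordinates are 1-based. The overlap search was tested on simulated data. No test was made between classes of peaks or on gene lists.

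The members, gene lists and naming rule were chosen with earlier results of these data known. Named are the pairs with the highest lower fold (10), most blocks (6), longest joined length (5), strongest p (5), extreme gaps or replicate differences (3 each way), genes with 2 or more pairs, up to 4 genes for each list and the 3 highest members seen in 1 replicate only. Genes outside this rule, such as those at gene starts, at gene ends and on all collagen chains, were chosen after their values were seen. Of 1 gene list the result is not reported here. Computation used matplotlib 3.10.9, scipy 1.17.1, pandas 2.3.3 and numpy 2.4.6 under Python 3.11.15.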

Additional observations from a re-analysis of the deposited data

How the results depend on the processing

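Results were recomputed under other settings, and a value counted as moved when it left the spread between the replicates (1 SD, n = 2) or, for counts, a factor of 1.5. With at least 4 blocks required, the mean number of members fell from 492.5 to 173.5, the pairs from 281 to 106 and the median inner block from 84.5 to 76.5 nt. Requiring a fold of 2 or 8 in place of 4 gave 68.06% and 7.191% of members, against 28.74%. A fold of 4 was reached by 53.6% and 42.1% of all peaks. The quartiles of the fold over all peaks were 2.56 and 7.12 in replicate 1 and 2.14 and 5.56 in replicate 2. Members within reach of the gene start (24.3% at 200 nt by the block edge) were 16.64% at 50 nt, 28.87% at 500 nt and 4.617% by the midpoint of the joined blocks. By the midpoint, 22.5% and 19.0% of all peaks were within reach, and by the block edge at 200 nt 30.4% and 26.7%. Shares of all peaks at 50 and 500 nt are not given here. Leaving out collagen genes, a setting added after the data had been seen, gave an inner block of 97 nt and 26.4% at the start. Listed genes with a pair numbered 72, and 128 had a member in either replicate. With 1 replicate left out, the members numbered 410 to 575, their median fold was 2.41 to 2.78, 23.83% to 33.66% reached a fold of 4, the inner block was 81 to 88 nt, the share at the start 24.22% to 24.39%, and listed genes with a member 81 to 120. Pairs need both replicates and have no such value. The remaining settings, among them a 50% overlap (256 pairs) and no end blocks under 10 nt (242 pairs), stayed within these limits. No paired analysis was possible because the input libraries have no table of their own here and no test was made between groups.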

Other observations

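Hairpins of annotated miRNAs (RefSeq) on the same strand lay within the extent of few members, 8 hairpins in each replicate and 5 in both. The hairpin overlapped a block only on MARCHF6 (MIR10397, fold 3.64 and 3.63). MIR339 lay in a gap of the C7orf50 peak, MIR8073 in a gap of the first COL4A2 peak, MIR6797 in a gap of the RPS19 peak and MIR6819 in a gap of the MYH9 peak, in both replicates.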
